A study of Homo sapiens with 6 samples.

Results

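Mouse genes of the NRF2 antioxidant pathway, 10 of the 77134 gene rows quantified, were followed in subcutaneous tumours of A549 cells, a human lung adenocarcinoma line. They were picked by Ensembl gene ID and are Nfe2l2, Keap1, Nqo1, Hmox1, Gclc, Gclm, Txnrd1, Slc7a11, G6pdx and Srxn1. Tumours of the HIF1A-AS3 overexpression group (3 libraries) grew from A549 cells stably infected with the lentivirus pLV-CMV-HIF1A-AS3-EGFP-Neo. Tumours of the vector control group (3 libraries) grew from A549 cells carrying pLV-CMV-EGFP-Neo, so the CMV promoter, EGFP and the neomycin marker were common to both groups. In each case 5000000 cells were placed under the skin of BALB/c nude mice, athymic animals that lack most T cells. Each library came from 1 tumour, and the labels give neither the age or sex of the mice nor whether each tumour had its own host. P-values therefore measure only the spread between these tumours, part of which may be technical. Tumours that shared a host would not be independent.

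NRF2, the protein of Nfe2l2, is a transcription factor that switches on genes for detoxification and for the supply of reduced glutathione and thioredoxin. In unstressed cells KEAP1 binds NRF2 and hands it to a ubiquitin ligase for destruction, and oxidants or electrophiles block that step. A549 cells carry a KEAP1 mutation and have constitutively active NRF2. The rows described here are mouse genes, taken to count RNA of host cells within the tumour, such as macrophages, fibroblasts and vessel cells. The labels give the organism as Homo sapiens, which the mouse rows do not match. Human RNA similar enough to a mouse transcript could also have been counted there, and its part in these rows was not tested. In bulk tumour RNA, fewer cells of a type and less RNA per cell cannot be told apart.

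HIF1A-AS3 is transcribed antisense to human HIF1A, which encodes a subunit of the hypoxia-inducible factor, and the question was whether raising it in the tumour cells went with a different level of these genes. None of the 9 genes that passed the filter on low counts met the threshold of an adjusted p below 0.05 (edgeR quasi-likelihood test, Benjamini-Hochberg over 12637 genes), where 0.0158% of all genes did. The tenth, Nqo1, was too low to be tested. The smallest adjusted p among the 9 was 0.70, shared by Gclm and G6pdx. At an unadjusted p below 0.05 in edgeR there was 1 of the 9, Gclm, or 11.1%, beside 6.29% of all genes. The fitted log2 fold change (overexpression over control) was below 0 for 7 genes and above 0 for Keap1 and Srxn1. Its median over the 9 was -0.20, beside 0.0065 over all genes tested, of which 49.4% were below 0. The typical 95% interval of a member reached 1.39-fold to either side of its estimate, beside 1.57-fold for the typical gene. These intervals are not adjusted for the number of genes, and the adjusted threshold asks for larger changes. G6pdx at 0.625-fold and Hmox1 at 0.656-fold of control did not pass it, so changes of such sizes could not be told from none.

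Levels are given in CPM, the usual unit of counts scaled by library depth and by a TMM factor, which corrects for a few abundant genes taking a large share of a library. They are not divided by transcript length, so levels are compared between libraries and not between genes. The 6 libraries held 4167784 to 4769157 estimated counts. Overexpression replicate 1 stood apart: its TMM factor was 0.742, beside 1.02 to 1.10 in the other libraries, and its mean correlation with the other libraries was 0.906, beside 0.922 to 0.939. Estimates with 1 library left out are given for the members that this moved by over 1.5 times.

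**Figure D1:**
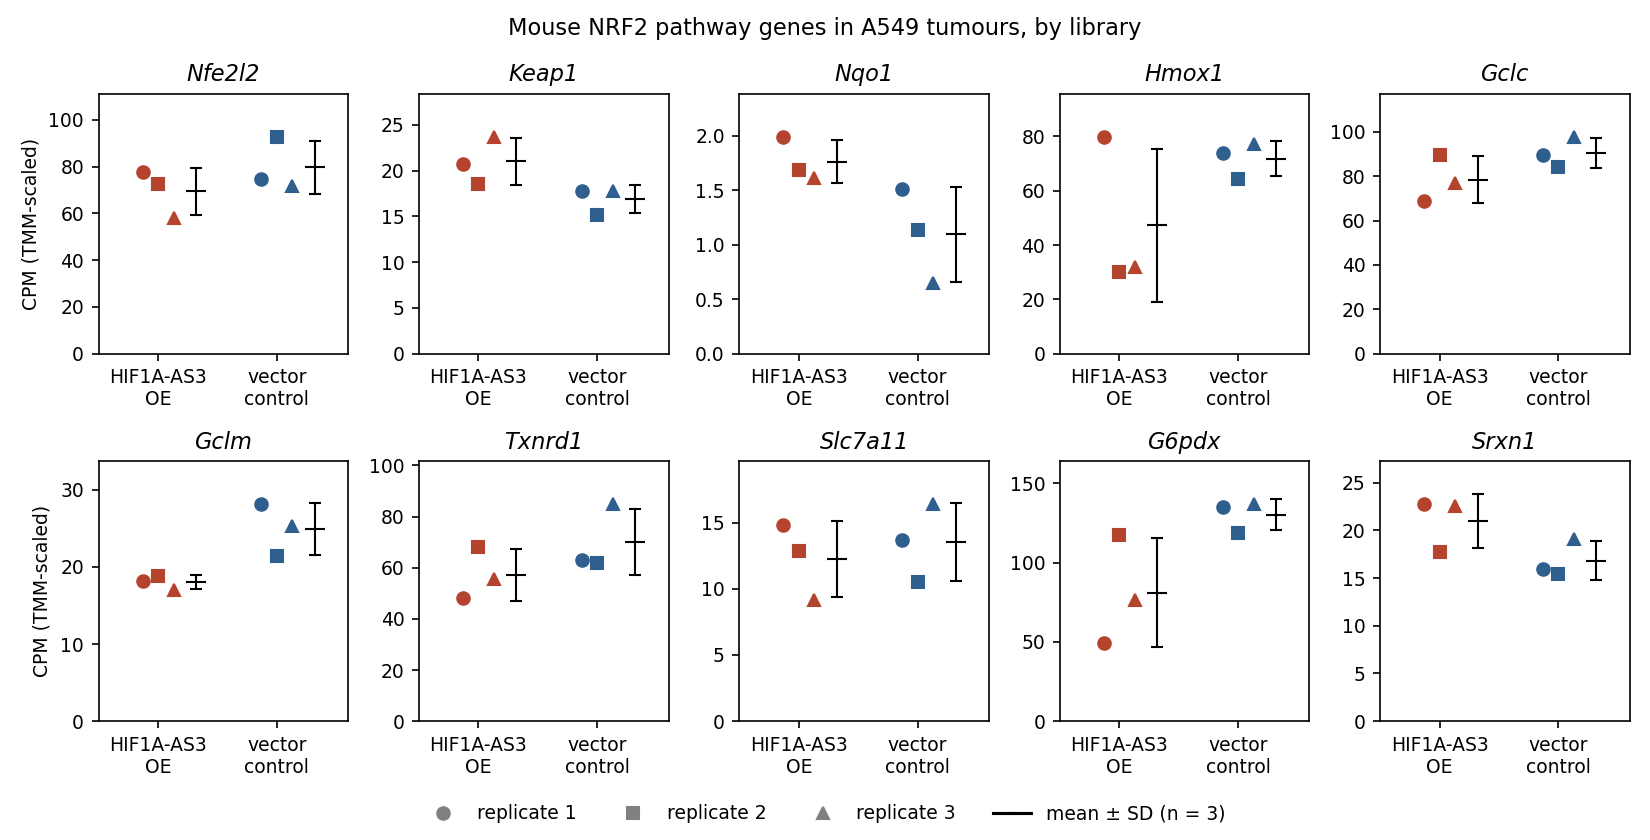
Level of each of the 10 mouse genes in CPM (vertical axes, each from 0) in the 3 HIF1A-AS3 overexpression (OE) and 3 vector control libraries. Each symbol is 1 library and the black bars are means ± SD. Gclm and G6pdx of all 3 OE libraries lie below all 3 controls, Keap1 and the barely detected Nqo1 lie above, and Hmox1 splits the OE libraries into 1 at 79.8 and 2 near 30 to 32 CPM. Of all 12637 genes tested, which leave out Nqo1, 13.1% did not overlap between the groups.

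Neither regulator passed the test. Nfe2l2 (ENSMUSG00000015839.7) stood at 77.5, 72.7 and 58.2 CPM in overexpression replicates 1, 2 and 3, against 74.8, 92.7 and 71.6 CPM in controls 1, 2 and 3. The groups overlapped, with the lowest value in overexpression replicate 3 and the highest in control 2. Its log2 fold change of -0.20 ± 0.19 (SE) had an adjusted p of 0.80 in edgeR, and its 95% interval ran from 0.644-fold to 1.18-fold. Leaving out 1 library moved the estimate between -0.32, without overexpression replicate 1, and -0.07, without control replicate 2, and it was -0.09 without overexpression replicate 3.

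Keap1 (ENSMUSG00000003308.16), which encodes the NRF2-binding adaptor of the ubiquitin ligase, stood at 20.7, 18.6 and 23.7 CPM in overexpression replicates 1, 2 and 3, against 17.7, 15.1 and 17.8 CPM in controls 1, 2 and 3. All 3 overexpression libraries lay above all 3 controls, though replicate 2 by less than 1 CPM. The means were 21.0 ± 2.56 CPM in overexpression tumours and 16.9 ± 1.52 CPM in controls (SD, n = 3 each). The edgeR fit gave 0.31 ± 0.19 on the log2 scale (SE; adjusted p = 0.72). With libraries scaled by their totals alone it was 0.085 and the groups overlapped. The CPM then gave p = 0.90 (exact permutation test, two-sided), beside 0.1 with TMM scaling, the lowest this design can give.

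Of the enzymes acting on quinones and haem, Nqo1 was barely detected and Hmox1 varied most between overexpression tumours. Nqo1 (ENSMUSG00000003849.9), a quinone reductase widely used as a readout of NRF2 activity, had 7, 8 and 7 counts in overexpression replicates 1, 2 and 3, against 7, 5 and 3 counts in controls 1, 2 and 3. These are 1.76 ± 0.20 CPM in overexpression tumours and 1.10 ± 0.436 CPM in controls (SD, n = 3 each). The CPM did not overlap between the groups, and the two-sided exact permutation test gave 0.1, its smallest possible p with 3 libraries against 3. With all rows above 0 in some library entered, its log2 fold change was 0.67 with an adjusted p of 0.73 in edgeR, and with library totals alone the exact permutation p of its CPM was 0.30. The limit that a count of 0 allows, 3 counts, stands for 0.632 to 0.852 CPM in these libraries, so a difference at this level rests on a few counts per library.

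Hmox1 (ENSMUSG00000005413.9) encodes haem oxygenase-1, which breaks down haem and in tissues is prominent in macrophages that take up red cells. It stood at 79.8, 30.1 and 32.0 CPM in overexpression replicates 1, 2 and 3, against 73.7, 64.5 and 77.1 CPM in controls 1, 2 and 3. Overexpression replicates 2 and 3 were below every control, while replicate 1 was the highest of all 6 libraries. The group means were 47.3 ± 28.2 CPM in overexpression tumours and 71.8 ± 6.56 CPM in controls (SD, n = 3 each), so the spread among overexpression tumours exceeded the difference of the means. On the log2 scale the edgeR estimate was -0.61 ± 0.37 (SE; adjusted p = 0.71).

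Leaving out 1 library moved the Hmox1 estimate over a wider log2 range than that of any other member tested, though only Slc7a11 changed sign. Without overexpression replicate 1 its log2 fold change was -1.24, with an edgeR adjusted p of 0.24. Without overexpression replicate 2 it was -0.36 and without overexpression replicate 3 it was -0.39. None of these fits took it past the threshold in edgeR, with adjusted p values of 0.60 and 0.80 for the last 2. All 6 estimates of this gene were whole numbers to within 0.001, as were those of Gclc and Nqo1, while the other members had fractional estimates in some libraries.

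Of the genes of glutathione supply, only Gclm did not overlap between the groups, beside 13.1% of all genes tested. Gclc and Gclm encode the catalytic and the modifier subunit of glutamate-cysteine ligase, the rate-limiting enzyme of glutathione synthesis. Slc7a11 encodes the transporter that brings in cystine for it in exchange for glutamate.

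Gclm (ENSMUSG00000028124.17) stood at 18.2, 18.8 and 17.0 CPM in overexpression replicates 1, 2 and 3, against 28.1, 21.4 and 25.4 CPM in controls 1, 2 and 3. All 3 overexpression libraries lay below all 3 controls and within 2 CPM of each other. The means were 18.0 ± 0.913 CPM in overexpression tumours and 25.0 ± 3.36 CPM in controls (SD, n = 3 each; exact permutation p = 0.1, the lowest this design can give). The edgeR estimate was -0.47 ± 0.19 on the log2 scale (SE; adjusted p = 0.70, unadjusted p = 0.036). Its 95% interval, not adjusted for the number of genes, ran from 0.533-fold to 0.972-fold. The estimate kept its sign when each library was left out, between -0.57 and -0.38. Its unadjusted p was 0.041 in limma-voom, 0.083 in DESeq2 on the same genes and 0.16 in edgeR without control replicate 1. In that DESeq2 fit the 1 member with an unadjusted p below 0.05 was G6pdx, at 0.035.

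Gclc (ENSMUSG00000032350.10) stood at 68.7, 89.8 and 77.1 CPM in overexpression replicates 1, 2 and 3, against 89.7, 84.1 and 97.8 CPM in controls 1, 2 and 3. Overexpression replicates 1 and 3 were below every control, and replicate 2 lay among them. Its edgeR log2 fold change was -0.20 ± 0.17 (SE; adjusted p = 0.77), and ranged from -0.31 without overexpression replicate 2 to -0.14 without control replicate 3.

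Slc7a11 (ENSMUSG00000027737.11) stood at 14.8, 12.9 and 9.15 CPM in overexpression replicates 1, 2 and 3, against 13.7, 10.5 and 16.4 CPM in controls 1, 2 and 3. The groups overlapped widely, with the lowest value in overexpression replicate 3 and the highest in control 3. The edgeR estimate on the log2 scale was -0.14 ± 0.27 (SE; adjusted p = 0.90). Its sign was not stable, at 0.030 without control replicate 3 and 0.032 without overexpression replicate 3, and it was -0.32 without overexpression replicate 1 and -0.29 without control replicate 2.

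Among the thiol reductases and the source of their NADPH, G6pdx had the lowest fitted fold change of the 9 genes. G6pdx (ENSMUSG00000031400.11) encodes the X-linked glucose-6-phosphate dehydrogenase, which makes NADPH at the entry of the pentose phosphate pathway. It stood at 49.5, 117 and 76.6 CPM in overexpression replicates 1, 2 and 3, against 135, 119 and 137 CPM in controls 1, 2 and 3. All 3 overexpression libraries lay below all 3 controls, but replicate 2 only just, and replicate 1 was the lowest of all 6 libraries. The means were 81.1 ± 34.1 CPM in overexpression tumours and 130.1 ± 9.79 CPM in controls (SD, n = 3 each; exact permutation p = 0.1, again the lowest possible).

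In edgeR, G6pdx had a log2 fold change of -0.68 ± 0.30 (SE; adjusted p = 0.70, unadjusted p = 0.052). It ranked at the 5.56th percentile of the log2 fold changes of all genes tested, and Hmox1 at the 7.04th. Without overexpression replicate 2 the estimate for G6pdx was -1.04 at an adjusted p of 0.12 in edgeR, the lowest adjusted p that any member reached in the alternatives run. Without overexpression replicate 1 it was -0.46 at an adjusted p of 1.00 and an unadjusted p of 0.072.

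Txnrd1 (ENSMUSG00000020250.12) encodes the cytosolic thioredoxin reductase, a selenoprotein that uses NADPH to keep thioredoxin reduced. It stood at 48.1, 67.9 and 55.4 CPM in overexpression replicates 1, 2 and 3, against 62.9, 62.0 and 84.8 CPM in controls 1, 2 and 3. The groups overlapped through overexpression replicate 2, which lay above controls 1 and 2. Its log2 fold change in edgeR was -0.29 ± 0.21 (SE; adjusted p = 0.75). It was -0.13 without control replicate 3 and -0.43 without overexpression replicate 2, the ends of its range with 1 library left out.

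Srxn1 (ENSMUSG00000032802.9) encodes sulfiredoxin, which repairs overoxidised peroxiredoxins. It stood at 22.7, 17.7 and 22.5 CPM in overexpression replicates 1, 2 and 3, against 15.9, 15.4 and 19.1 CPM in controls 1, 2 and 3. Overexpression replicates 1 and 3 were above every control and replicate 2 was below control 3. The log2 estimate was 0.32 ± 0.20 in edgeR (SE; adjusted p = 0.72), and 0.078 with library totals alone.

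**Figure D2:**
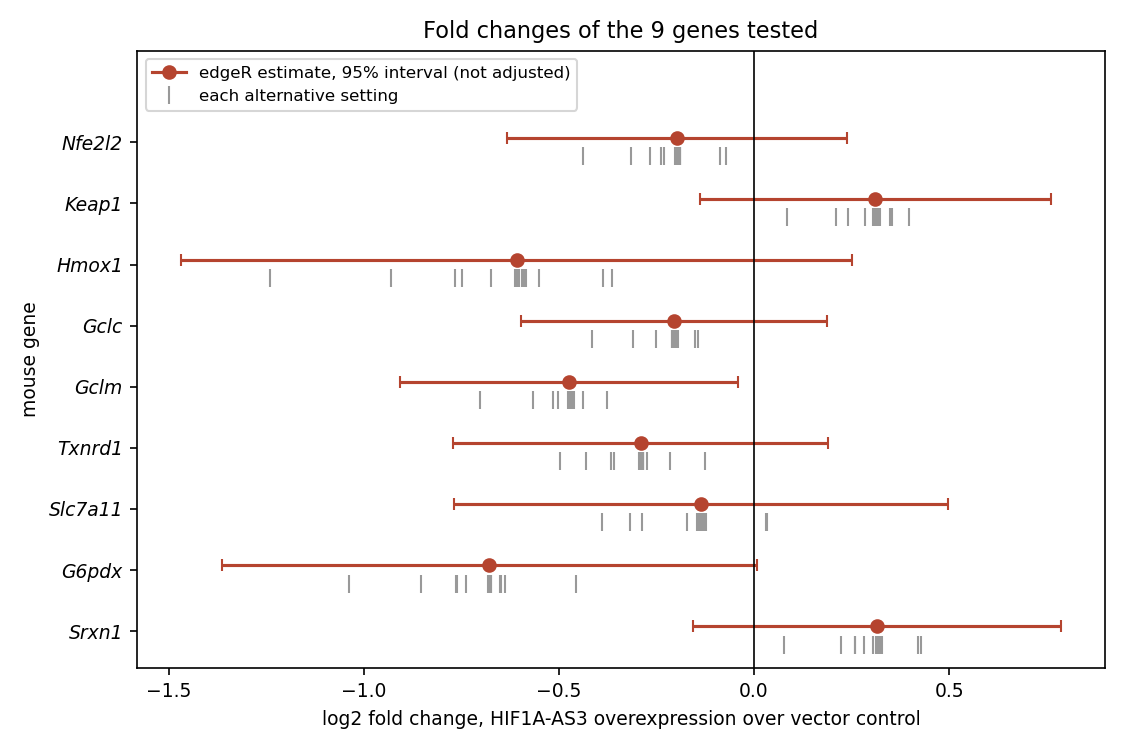
Fitted log2 fold change of the 9 genes tested (horizontal axis, overexpression over control), with points and bars for the edgeR estimate and its unadjusted 95% interval and grey ticks for the 17 alternative settings. The interval of Gclm ends below 0, that of G6pdx reaches just past it, and only the ticks of Slc7a11 fall on both sides of 0.

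Of the 9 genes tested, 3 did not overlap between the groups: Gclm and G6pdx with overexpression below control and Keap1 with overexpression above control. That is 33.3%, beside 13.1% of all genes tested, of which 6.39% had overexpression below control and 6.75% above. With library totals alone, Nfe2l2, Hmox1, Gclm and G6pdx lay below control without overlap and no member lay above, where 12.8% of all genes tested lay below and 2.11% above. That scaling moved the median over all 12637 genes by -0.22 on the log2 scale. With RLE size factors and with upper quartile scaling the same 3 of the 9 genes lay apart as with TMM. Of all genes tested, 6.32% then lay below control and 6.48% above with RLE, and 6.20% below and 6.24% above with the upper quartile. The choice of scaling did not change the sign of any of the 9 estimates.

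**Figure D3:**
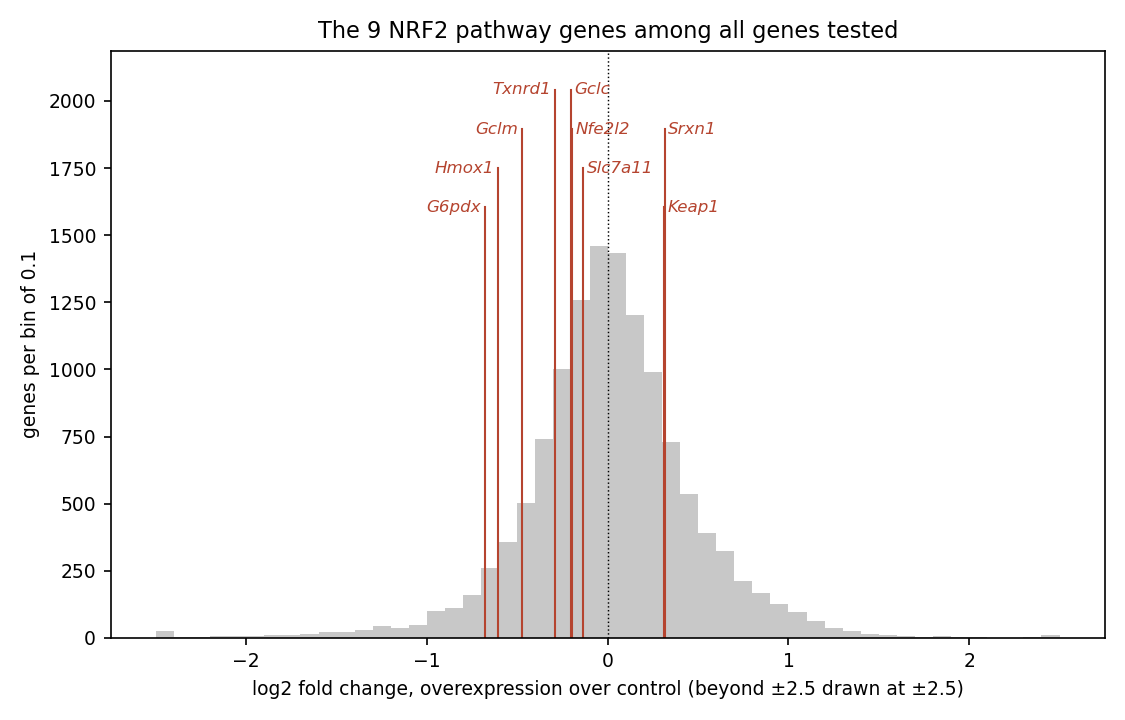
Distribution of the log2 fold changes of all 12637 genes tested (grey bars, genes per bin), with the 9 NRF2 pathway genes as vertical lines whose height has no meaning. The lines run from -0.68 for G6pdx to 0.32 for Srxn1, from the 5.56th to the 79.0th percentile of all genes.

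The members differed in how they ordered the libraries. Gclc and Txnrd1 put the 6 libraries in the same order, from overexpression replicate 1 as the lowest through overexpression replicate 3, controls 2 and 1 and overexpression replicate 2 to control 3 as the highest. G6pdx had the same lowest pair and the same highest library. Hmox1 differed from these: overexpression replicate 1, the lowest library for Gclc, Txnrd1 and G6pdx, was its highest. Srxn1 was also highest in overexpression replicate 1 and next highest in replicate 3. These orders were read after the values were seen and have no test.

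Counted against the control mean on the log2 CPM scale, overexpression replicate 3 lay below it in 7 of the 9 genes with a median of -0.44, and replicate 2 in 7 of 9 with a median of -0.05. Overexpression replicate 1 lay below it in 5 of 9 with a median of -0.03. Over all genes tested, 45.8% to 52.9% lay below the control mean in the 3 overexpression libraries. Control 2 was below the control mean in 8 of the 9 genes with a median of -0.15. Control 3 was below it in 1 of 9 with a median of 0.11, and control 1 in 4 of 9 with a median of 0.04. Over all genes tested, 48.6% to 49.1% lay below it in the 3 controls. Each control is part of that mean, so its deviations cannot be set directly against those of the overexpression libraries.

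**Figure D4:**
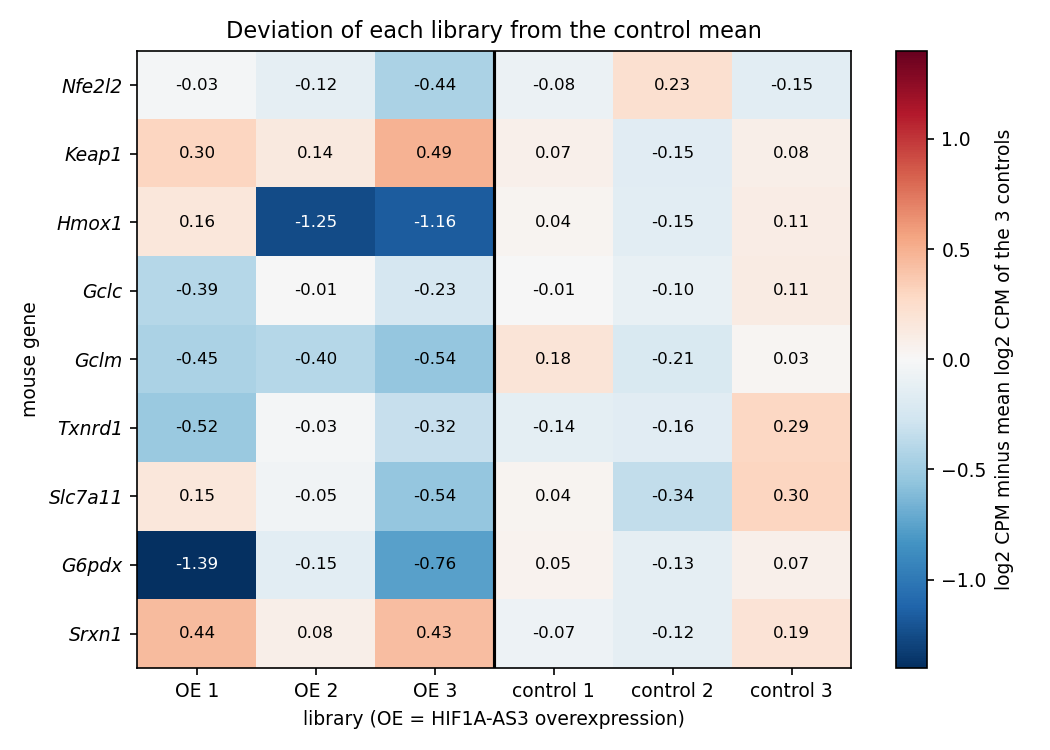
Deviation of each library (columns) from the mean log2 CPM of the 3 controls for the 9 genes tested (rows), in colour and printed in each cell. The largest deviations are those of G6pdx in overexpression (OE) replicate 1, at -1.39, and of Hmox1 in replicates 2 and 3, at -1.25 and -1.16, where replicate 1 has 0.16.

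Ratios of counts between members of the same library do not depend on any scaling factor. The 3 ratios below pair members of one system, were chosen after the values were seen and are given without a test. How often ratios of other gene pairs lie apart between the groups was not computed, so lack of overlap here has no share beside it. The ratio of Keap1 to Nfe2l2 counts, inhibitor over transcription factor, was 0.267, 0.256 and 0.407 in overexpression replicates 1, 2 and 3, against 0.237, 0.163 and 0.249 in controls 1, 2 and 3. The groups did not overlap, but overexpression replicate 2 and control 3 differed by less than 0.01. The means were 0.310 ± 0.0843 in overexpression tumours and 0.216 ± 0.0464 in controls (SD, n = 3 each).

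The ratio of Srxn1 to Txnrd1 counts, peroxiredoxin repair over thioredoxin reductase, was 0.473, 0.261 and 0.407 in overexpression replicates 1, 2 and 3, against 0.253, 0.248 and 0.226 in controls 1, 2 and 3. The controls lay close together, overexpression replicate 2 lay just above them, and replicates 1 and 3 stood well above. The means were 0.380 ± 0.108 in overexpression tumours and 0.242 ± 0.0147 in controls (SD, n = 3 each). The overexpression mean was 1.57 times the control mean, and 1.38 times without overexpression replicate 1.

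The ratio of Gclm to Gclc counts, modifier over catalytic subunit, was 0.265, 0.209 and 0.221 in overexpression replicates 1, 2 and 3, against 0.313, 0.255 and 0.259 in controls 1, 2 and 3. Here the groups overlapped, since overexpression replicate 1 lay above controls 2 and 3.

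**Figure D5:**
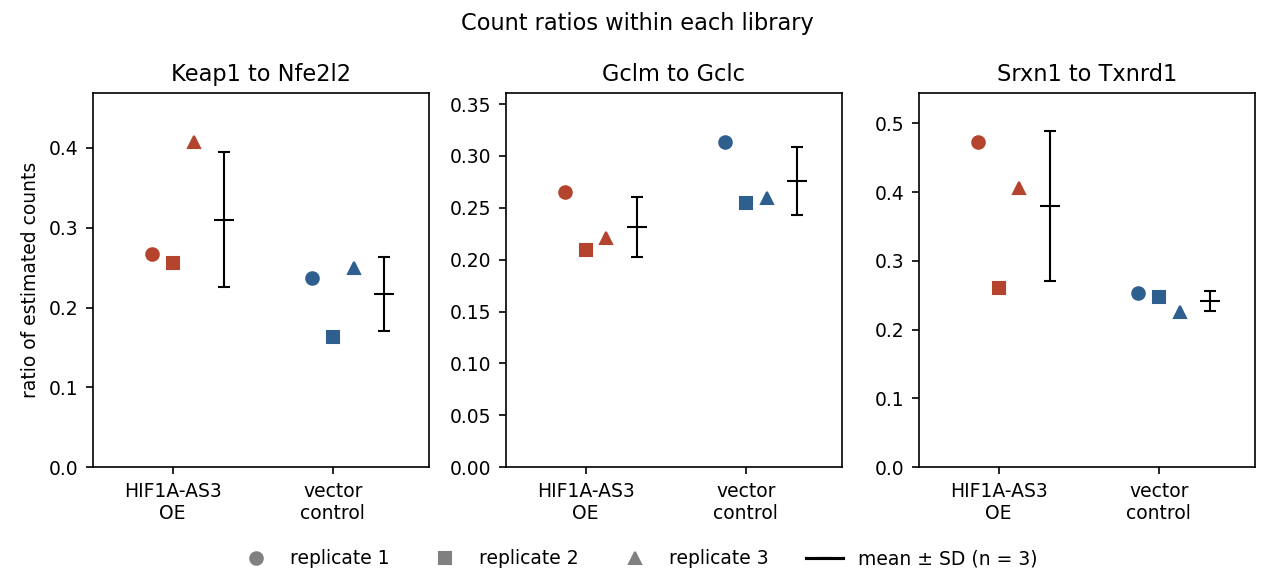
Ratio of the estimated counts of 2 members within each library (vertical axes, each from 0), with 1 symbol per library and black bars for means ± SD. Keap1 to Nfe2l2 and Srxn1 to Txnrd1 are higher in all 3 overexpression (OE) libraries than in the controls, with OE replicate 2 closest to the controls, and Gclm to Gclc overlaps.

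How much libraries differed beyond counting error was fitted per gene as a biological coefficient of variation. It had a median of 0.194 over the 9 genes, beside 0.249 over all genes tested, which were not matched to the 9 for level. Among the 9 it was highest for Hmox1, at 0.330, and next highest for G6pdx, at 0.274. Slc7a11 followed at 0.246 and was also the member tested with the fewest counts, 153 summed over the overexpression libraries and 186 over the controls.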

How the data were processed

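RNA of 6 A549 tumours was sequenced as 1 library each. The authors deposited 1 table of estimated counts per gene, not normalized, per the file header. The submitters' processing notes name the mouse build mm10 and, with no stated roles, edgeR, DESeq2, featureCounts 2.0.6, HISAT2 2.2.1 and Trimmomatic 0.39. The table's name points to salmon, of no stated version. All 6 columns were matched to tumours by name. The members carry names because they were given with their IDs. No other ID could be named, since 0 IDs matched the name tables used here (human genes), so 78 further pathway genes and all cell type markers listed by symbol were not analysed here. HIF1A-AS3 itself was not analysed here, so the labels were not checked against it. The members and lists were chosen with earlier results of these data known. All 10 members were to be named.

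Estimated counts were rounded and analysed in R 4.3.3 with edgeR 4.0.16: filterByExpr at its defaults (12637 genes, 99.5% of counts), TMM, robust quasi-likelihood F-test on group, Benjamini-Hochberg over all genes tested. Standard errors came from the fold change and its F statistic. CPM use unrounded estimates. Single values were compared by exact permutation over 20 assignments, whose smallest p is 0.1. The fit was tested on simulated data, and the share of changes it recovered is not given here. No library was a duplicate: even the closest 2 had 3.89 times the variance that sampling gives. Ratios between members, and a filter that kept genes detected in all 6 libraries, were added after the data were seen. Alternatives used DESeq2 1.42.0, limma 3.58.1 (voom), other scalings and filters, a replicate block and leaving out each library. Floors cover counting error only.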

Additional observations from a re-analysis of the deposited data

How the results depend on the processing

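No member passed the threshold in any of the 17 alternatives, where the smallest adjusted p of a member ranged from 0.12 (without overexpression replicate 2) to 1.00. The signs of 8 of the 9 log2 fold changes were the same in all 17. Slc7a11 was the exception, at 0.030 without control replicate 3 and 0.032 without overexpression replicate 3, and the cause was not tested. The median over the 9 members, -0.20, was -0.44 with library totals only, which lowered the median of all genes by 0.22, and -0.32 to -0.14 with 1 library left out. The count of all genes past the threshold, 2 in edgeR, moved to 29 (DESeq2, unfiltered rows), to 28 (DESeq2, filtered rows), to 7 with limma-voom, to 4 with library totals only (1 higher, 3 lower), to 14 with no filter on low counts and to 0 among genes above 0 in every library, a setting chosen after the data were seen (894 genes at an unadjusted p below 0.05). Leaving out 1 library gave 0 to 14, with 14 without overexpression replicate 2 and 0 without control replicate 1 or overexpression replicate 3. With a replicate block the count was 0, at 414 genes with an unadjusted p below 0.05, and it called no member. Same-numbered libraries correlated at -0.09, -0.34 and -0.10 in their deviations from group means, so the numbers were not taken as pairs. Depth limits Nqo1, whose 3 to 8 counts per library kept it from the test.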
